A study of Mus musculus with 24 samples.

Results

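The Mediator complex and RNA polymerase II together form the apparatus that starts transcription of protein-coding genes. Here their 47 genes were followed in mouse neural progenitor cells treated with the BET bromodomain inhibitor (+)-JQ1 or with its mirror image. The members were taken by name, as every symbol that begins with Med and a number or with Polr2 and a letter from a to m, together with Cdk8, Cdk19, Ccnc and Cdk7. They are 47 of the 26694 gene symbols in the files, and all 47 were among the 13801 genes tested, which had at least 1 FPKM (fragments per kilobase of transcript, scaled to the mapped fragments of a library) in at least 3 libraries. The rule itself uses names and no measured value, but it was set with earlier results of these data known.

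The cells were cortical neural progenitor cells from C57BL/6 mouse embryos at embryonic day 12, used at passage 3 after expansion with basic fibroblast growth factor and B27 supplement. All groups were kept in differentiation medium, so no group shows cells left untreated or still in expansion. The treatments were (+)-JQ1 at 0.2 µM for 12 h, 0.5 µM for 12 h, 0.2 µM for 24 h and 0.5 µM for 24 h, each set against (−)-JQ1 at the same dose and time. Each of the 8 groups had 3 libraries from independent cell preparations, 24 libraries in all. (+)-JQ1 displaces the bromodomains of BET proteins, such as Brd2 and Brd3, from acetylated chromatin, and (−)-JQ1 has the same atoms in mirror-image arrangement and served as the inactive compound.

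Mediator is a large complex that carries signals from DNA-bound factors to RNA polymerase II. Its head and middle touch the polymerase, Med14 holds head, middle and tail together as a scaffold, and the tail meets activators. A separable kinase module, made of Cdk8 or its paralog Cdk19, cyclin C (Ccnc), Med12 or Med12l and Med13 or Med13l, docks on this core in a reversible way. Polr2a codes for the largest polymerase subunit, with the catalytic site and the repeated tail that Cdk7, a kinase of the general factor TFIIH, phosphorylates as transcription begins. Some small subunits (Polr2e, Polr2f, Polr2h, Polr2k, Polr2l) are shared with RNA polymerases I and III.

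Promoters are shown for 3 genes that changed in these data, so that the letters upstream of a subunit that was higher can be set beside those of one that was lower. They were chosen after their values were seen. The sequences are RefSeq's on build GRCm38.p6, on the strand of the gene, and end at the most upstream annotated start. Capitals mark matches to TATAAA (the core of a TATA box), CCAAT (bound by factor NF-Y) and GGGCGG (the GC box, bound by Sp1), each read on both strands. Polr2a and Med13 were higher with (+)-JQ1, and Med6 was lower.
Polr2a (chr11:69758638-69758883, minus strand): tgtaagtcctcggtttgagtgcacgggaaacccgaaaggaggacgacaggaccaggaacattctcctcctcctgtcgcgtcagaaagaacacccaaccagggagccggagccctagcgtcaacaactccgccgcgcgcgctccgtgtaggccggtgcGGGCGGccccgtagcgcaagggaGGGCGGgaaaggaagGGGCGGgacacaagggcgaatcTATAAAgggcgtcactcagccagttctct
Med13 (chr11:86357603-86357846, minus strand): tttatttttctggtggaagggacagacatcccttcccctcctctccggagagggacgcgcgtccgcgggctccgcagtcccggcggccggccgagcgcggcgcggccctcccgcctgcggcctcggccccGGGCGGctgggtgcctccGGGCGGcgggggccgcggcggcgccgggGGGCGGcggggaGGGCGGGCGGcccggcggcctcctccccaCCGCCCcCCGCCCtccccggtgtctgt
Med6 (chr12:81595009-81595258, minus strand): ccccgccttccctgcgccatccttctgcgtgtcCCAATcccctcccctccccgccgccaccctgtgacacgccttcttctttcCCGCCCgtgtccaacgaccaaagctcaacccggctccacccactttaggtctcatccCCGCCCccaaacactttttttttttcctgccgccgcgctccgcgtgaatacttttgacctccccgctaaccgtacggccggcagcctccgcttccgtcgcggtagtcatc

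Positions count back from the RefSeq start, with -1 as the base just before it, and give the first base of a match. The Polr2a window had TATAAA at -33 and GC boxes at -93, -70 and -55. The Med13 window had 7 GC boxes and neither of the other motifs, and those at -62 and -58 overlap. The Med6 window had CCAAT at -217 and GC boxes at -167 and -110. Of the 47 genes, 39 had a promoter in the table. TATAAA was found in the windows of 5 of these 39 (12.8%: Med16, Med28, Med7, Polr2a, Polr2c), against 7.53% of the 8966 tested genes with a promoter. GGGCGG was found in 28 of 39 (71.8%), against 65.3%, and CCAAT in 15 (38.5%), against 41.8%. The ETS-factor motif CCGGAAG was found in 9 (23.1%), against 15.6%, and the E-box CACGTG in 3 (7.69%), against 10.1%. The windows for these shares were the 250 bases before the start. A match is a run of letters and no evidence of binding.

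FPKM carry no read numbers, so absolute depth is unknown here, and no counting interval can be given. FPKM summed to 432235 to 871177 per library, and 16953 to 18201 genes per library were above 0. The microRNA gene Mir5105 took 46.9% of the sum in replicate 2 of (+)-JQ1 and 42.7% in replicate 1 of (−)-JQ1, both at 0.2 µM and 24 h, against at most 6.68% in the other 22 libraries. Libraries at 0.2 µM and 24 h also held many of the members' extremes: among the 12 (+) libraries replicate 2 held the highest value of 17 members, and among the 12 (−) libraries replicates 1 and 3 held those of 14 and 15. The highest values of all genes tested lay in these libraries for 29.4%, 29.3% and 15.9%. For the members these shares were 36.2%, 29.8% and 31.9%. The (+) replicate 2 and the (−) replicate 3 thus held a larger share of the members than of all genes, most clearly replicate 3. Results for single members at 0.2 µM and 24 h that rest on 1 of these libraries are given without it as well.

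Neural progenitor markers (6 of 6 tested) summed to 3932 to 6970 FPKM in (+) and 2750 to 4991 FPKM in (−) libraries. Oligodendrocyte lineage markers (9 of 9 tested) summed to 415 to 1195 FPKM in (+) and 1504 to 2140 FPKM in (−) libraries, without overlap. Astrocyte markers (6 of 6) summed to 526 to 988 FPKM in (+) and 830 to 1421 FPKM in (−) libraries, and young neuron markers (4 of 5) to 118 to 255 FPKM in (+) and 98.2 to 189 FPKM in (−) libraries. Within the young neuron list Tubb3 was called higher in every comparison (0.57, 0.69, 0.68 and 1.07 on the log2 scale), while 2, 3, 1 and 2 of the other genes were called lower, and the median log2 change of the list was -0.66, -0.77, -0.40 and -0.56. Microglia markers summed to at most 0.607 FPKM in (+) and 1.22 FPKM in (−) libraries, with Aif1 at 0 in every library. Endothelial markers summed to 0.512 to 2.55 FPKM in (+) and 0.697 to 6.61 FPKM in (−) libraries (Cdh5 and Cldn5 at 0 throughout), and erythroid markers to at most 0.155 FPKM in (+) and 0.293 FPKM in (−) libraries (Hba-a1 and Hbb-b1 at 0 throughout). Pericyte and fibroblast markers summed to 1.97 to 4.28 FPKM in (+) and 4.14 to 10.6 FPKM in (−) libraries. The sums of neural markers thus moved with the enantiomer, and their part in the results below was not tested. In bulk RNA of this kind, fewer cells of a type and less RNA per cell cannot be told apart.

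The first question was how far the apparatus as a whole responded to the active enantiomer. Calls below are those with an adjusted p under 0.05 in limma, with Benjamini-Hochberg adjustment over all genes tested. At 0.2 µM and 12 h, 4 of 47 members were higher in (+)-JQ1 (8.51%; 8.23% of all genes) and 5 were lower (10.6%; 19.6% of all genes), 9 either way (19.1%; 27.9% of all genes). With 0.5 µM at 12 h, 6 were higher (12.2% of all genes) and 12 lower (26.1% of all genes), 18 either way (38.3%, as of all genes, 38.3%). With 0.2 µM at 24 h, 6 were higher (11% of all genes) and 9 lower (21.8% of all genes), 15 either way (31.9%; 32.8% of all genes). With 0.5 µM at 24 h, 3 were higher (13.7% of all genes) and 8 lower (24.5% of all genes), 11 either way (23.4%; 38.2% of all genes). The members' shares lay near or below those of all genes. The median log2 change of the members was -0.06, -0.10, -0.08 and 0.01 in the same order, beside -0.07, -0.10, -0.07 and -0.05 over all genes.

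No member was called in both directions. Of the 47, 9 were called higher in at least 1 of the 4 comparisons and never lower, 13 were called lower and never higher, and 25 were never called. How many of all genes were called in a single direction only was not counted, so this split has no background beside it. Together 22 of 47 (46.8%) were called at least once, against 50.9% of all genes. Polr2a was higher in all 4 comparisons, as were 5.84% of all genes, and Med30 and Med6 were lower in all 4, as were 14.6% of all genes. The sign of the change was the same in all 4 comparisons for 32 of 47 members (68.1%) and for 71% of all genes.

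**Figure D1:**
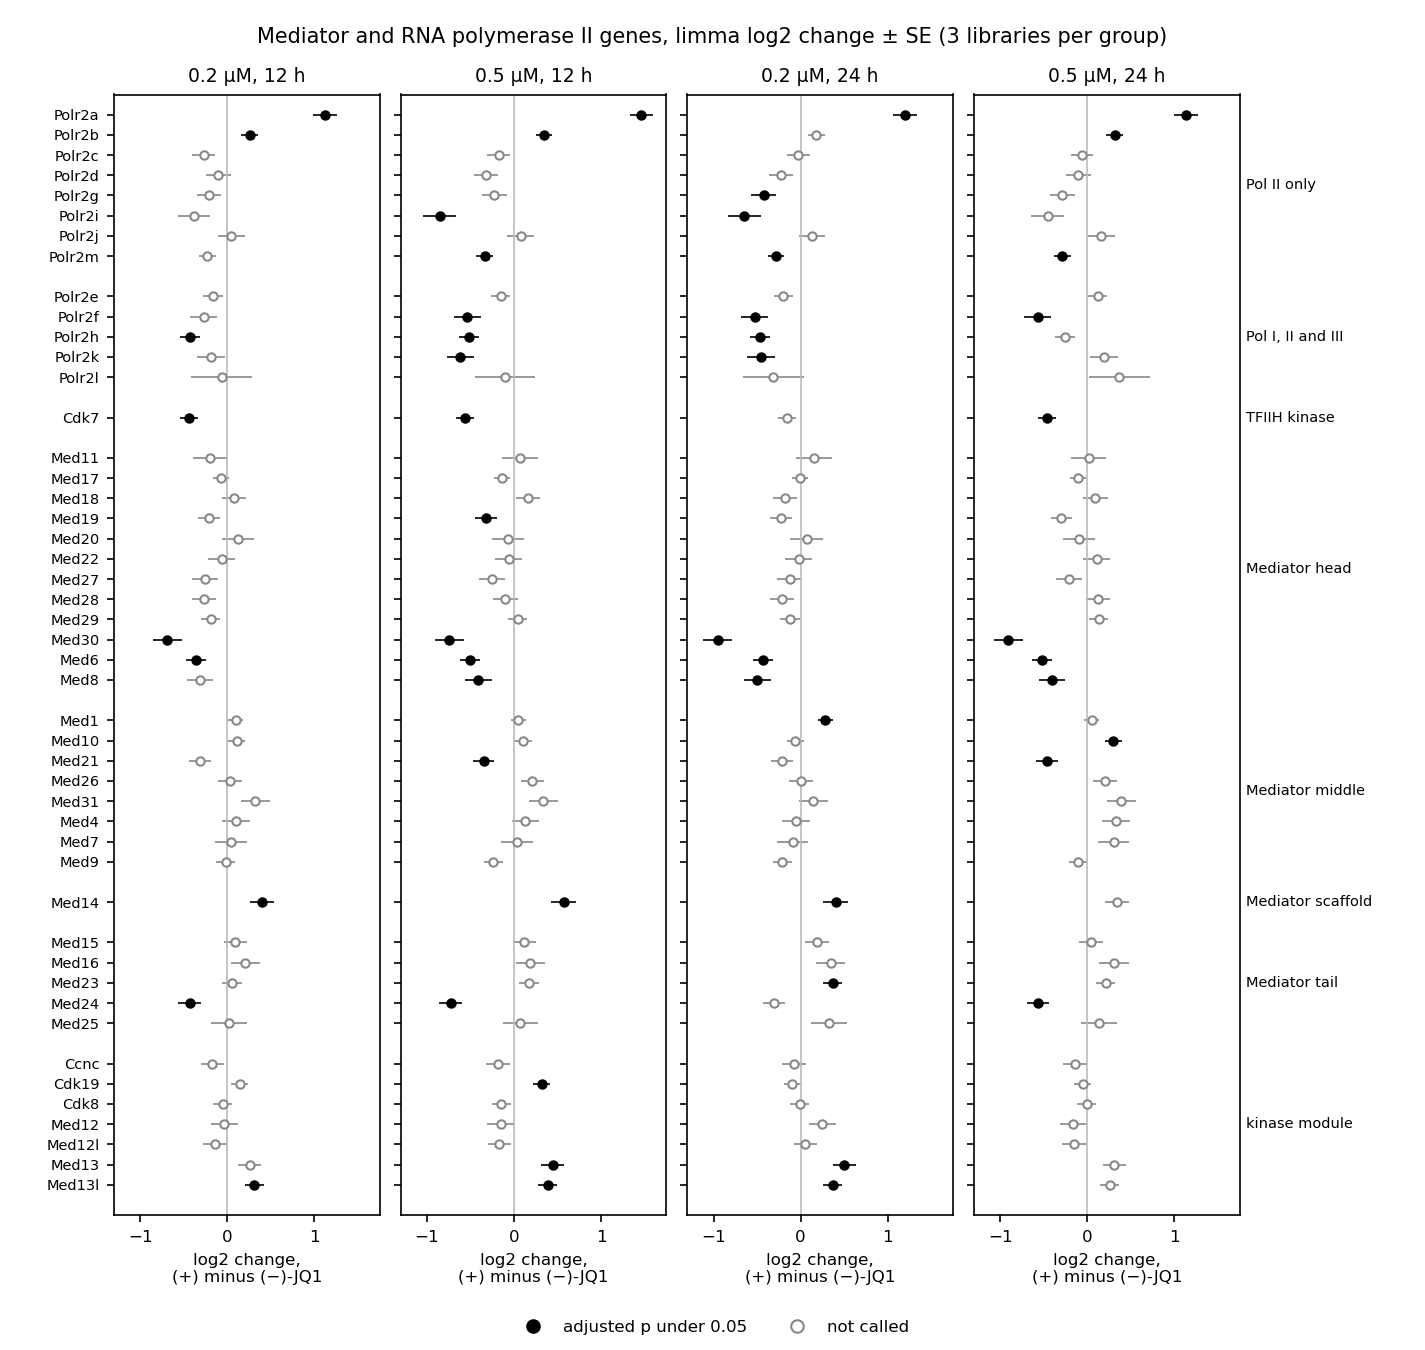
Log2 change of each of the 47 genes, (+) minus (−)-JQ1 on the log2(FPKM + 1) scale, with its standard error, by role and in the 4 comparisons of dose and time (3 libraries per group, filled points called at an adjusted p under 0.05). Polr2a stands at 1.12 to 1.46 in every panel, far to the right of the other members, and Med30 at -0.69 to -0.95 is the lowest in 3 of the 4.

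The counts rested in part on single libraries. Shares of all genes for the fits without 1 library are not given here. At 0.2 µM and 12 h the 4 higher members became 1 without (+) replicate 2, (−) replicate 1 or (−) replicate 3, and 2 without (+) replicate 3, while the 5 lower members became 3 without (+) replicate 1 or (−) replicate 2. The 6 higher members of 0.2 µM and 24 h became 3 without (+) replicate 3 and 10 without (−) replicate 1. The 9 lower members there became 4 without (+) replicate 3 or (−) replicate 3, 5 without (−) replicate 1 and 14 without (−) replicate 2. Without both libraries rich in Mir5105, 6 were higher and 6 lower. With only the 6 libraries of that comparison in the fit, 1 was higher (Polr2a) and 2 were lower (Med30 and Polr2h), so every other call at 0.2 µM and 24 h was lost there. For 0.5 µM and 24 h the 3 higher members became 1 without (+) replicate 1 and 5 without (+) replicate 2. Scaling each library by its median ratio moved the median of all genes by up to 0.101 (at 0.5 µM and 12 h) and gave 4, 8, 8 and 10 higher and 4, 9, 6 and 6 lower members in the order used above. The share of higher genes among all genes called moved with it and was 44.1%, 46.5%, 50.4% and 47.9%, beside 29.5%, 31.9%, 33.6% and 35.9% on the deposited scale.

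Polr2a, the catalytic subunit, had the largest change of all members. With 0.2 µM at 12 h it stood at 81.2, 105 and 84.1 FPKM in (+)-JQ1, against 40.2, 46.9 and 35.4 FPKM in (−)-JQ1. With 0.5 µM at 12 h it stood at 103, 120 and 111 FPKM in (+)-JQ1, against 38.1, 46.3 and 35.5 FPKM in (−)-JQ1. At 12 h the lowest (+) library lay far above the highest (−) library at either dose. After 24 h the values were 63.7, 73.4 and 70.0 FPKM in (+)-JQ1 at 0.2 µM, against 30.9, 29.5 and 28.1 FPKM in (−)-JQ1. For 0.5 µM at 24 h they were 79.5, 74.0 and 86.4 FPKM in (+)-JQ1, against 37.8, 29.5 and 41.5 FPKM in (−)-JQ1. The 12 (+) libraries, at 63.7 to 120 FPKM (median 82.7), did not overlap the 12 (−) libraries, at 28.1 to 46.9 FPKM (median 36.6).

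The log2 change of Polr2a was 1.12 ± 0.13, 1.46 ± 0.13, 1.20 ± 0.13 and 1.13 ± 0.13 (limma, SE), a rise of 2.18, 2.75, 2.29 and 2.19 times on the FPKM + 1 scale. The adjusted p-values were 1.70e-06, 2.09e-08, 6.30e-07 and 7.71e-07. Over 14 or 15 alternatives in each comparison the log2 change stayed between 0.99 and 1.58, and no call was lost. The difference exceeded the spread between libraries in all 4 comparisons. GENCODE M21 places no other gene's exons on those of Polr2a.

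Polr2b, the second-largest subunit, which closes the active centre with Polr2a, also rose, by much less. It stood at 48.0, 50.6 and 51.0 FPKM in (+)-JQ1 at 0.5 µM and 12 h, against 38.5, 38.1 and 40.5 FPKM in (−)-JQ1. Its log2 change was 0.26 ± 0.10, 0.35 ± 0.10, 0.18 ± 0.10 and 0.31 ± 0.10 (SE), with adjusted p-values of 0.0483, 0.00669, 0.156 and 0.0132. The first call was lost in 8 of 14 alternatives, among them leaving out (+) replicate 2 or 3 or any (−) replicate (log2 change 0.22 to 0.30). The call at 0.5 µM and 24 h was lost without (+) replicate 1 (0.28) or (−) replicate 3 (0.25). The ratio of Polr2a to Polr2b FPKM within a library was 1.23 to 2.37 in the 12 (+) libraries and 0.669 to 1.22 in the 12 (−) libraries, so the messages of the 2 large subunits did not keep their proportion. Polr2b shares 85 exon bases with Igfbp7 on the other strand in GENCODE, and whether the counting used strand is not given in the sources used here.

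**Figure D2:**
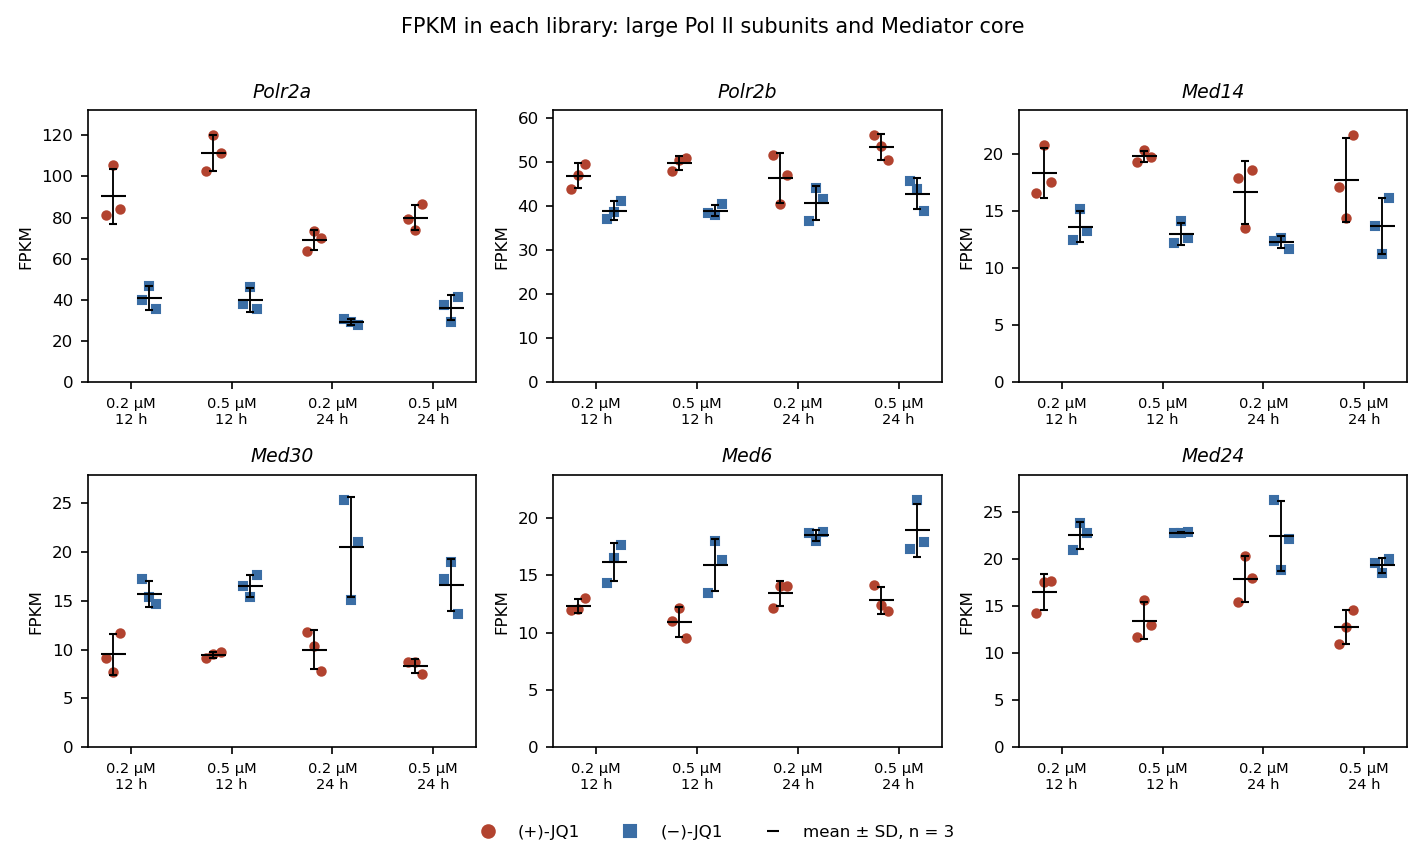
FPKM in each of the 24 libraries for the large polymerase subunits Polr2a and Polr2b, the Mediator scaffold Med14, the head subunits Med30 and Med6 and the tail subunit Med24, with (+)-JQ1 left of (−)-JQ1 at each dose and time (bars, mean ± SD of 3). For Polr2a and Med30 the 12 (+) and the 12 (−) libraries do not overlap.

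The other subunits that belong to polymerase II alone did not follow Polr2a. Polr2i, a small subunit that aids the accuracy of transcription, fell at 0.5 µM and 12 h to 15.04, 15.52 and 14.96 FPKM in (+)-JQ1, against 29.5, 27.5 and 27.7 FPKM in (−)-JQ1. Its log2 change was -0.38 ± 0.19, -0.85 ± 0.19, -0.65 ± 0.19 and -0.46 ± 0.19, with adjusted p-values of 0.146, 0.00102, 0.0113 and 0.0619. The (−) libraries at 0.2 µM and 24 h were 27.4, 21.6 and 48.4 FPKM, and without replicate 3 of them the change was -0.33 and no longer called, as also without (+) replicate 3 (-0.49). Exons of Polr2i share 325 bases with those of Tbcb on the other strand. Polr2m, which codes for the polymerase-associated protein Gdown1, was lower in 3 comparisons, with log2 changes of -0.34, -0.28 and -0.29 at 0.5 µM and 12 h, 0.2 µM and 24 h and 0.5 µM and 24 h. The calls of Polr2m were lost in 1, 8 and 5 alternatives, among them leaving out (+) replicate 1 at 0.5 µM and 12 h (-0.27), (+) replicate 2 or 3 or (−) replicate 1 or 3 at 0.2 µM and 24 h (-0.23 to -0.28) and replicate 1 or 2 of either enantiomer at 0.5 µM and 24 h (-0.25 to -0.28). Polr2g, part of the stalk that the new RNA passes, had negative log2 changes in all 4 comparisons (-0.21, -0.23, -0.43 and -0.29, each ± 0.14), of which that at 0.2 µM and 24 h was called (adjusted p = 0.0256). There it stood at 42.2, 44.6 and 37.6 FPKM in (+)-JQ1, against 57.1, 40.4 and 75.4 FPKM in (−)-JQ1, which overlap. Without (−) replicate 3 the change was -0.21 and not called, and the call was also lost without (+) replicate 3 (-0.36) or (−) replicate 1 (-0.41), with median-of-ratios scaling (-0.33), with only the compared libraries and without both libraries rich in Mir5105 (-0.46). Polr2c, Polr2d and Polr2j were not called in any comparison, with log2 changes between -0.32 and 0.16.

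Of the 5 subunits shared by the 3 polymerases, none was called higher in any comparison, also under both other scalings, and 1, 3, 3 and 1 were called lower (1, 3, 2 and 1 under both other scalings). Of all genes 19.6%, 26.1%, 21.8% and 24.5% were lower and 8.23%, 12.2%, 11% and 13.7% higher. Against these, 0 of 5 higher and 1 of 5 lower (20%) are near the background. Where 3 of 5 were lower (60%), the share lay above the 26.1% and 21.8% of all genes. That share rests on 5 genes, and its difference from the background was not tested. The median log2 change of the 5 was -0.19, -0.51, -0.45 and 0.12, beside -0.07, -0.10, -0.07 and -0.05 over all genes. Polr2f, a small subunit of the polymerase core, stood at 138, 138 and 144 FPKM in (+)-JQ1 at 0.5 µM and 12 h, against 191, 212 and 207 FPKM in (−)-JQ1. With 0.5 µM at 24 h it stood at 116, 122 and 131 FPKM in (+)-JQ1, against 180, 181 and 188 FPKM in (−)-JQ1. The groups did not overlap at either time. Its log2 change was -0.27 ± 0.16, -0.54 ± 0.16, -0.53 ± 0.16 and -0.57 ± 0.16 (SE), with adjusted p-values of 0.228, 0.00947, 0.0128 and 0.00599. The change at 0.2 µM and 24 h was -0.24 and not called without (−) replicate 3, which stood at 308 FPKM beside 178 and 160 FPKM. Polr2f shares 245 exon bases with 1700088E04Rik on the other strand.

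Polr2h, another shared core subunit, fell at 0.5 µM and 12 h to 11.2, 11.4 and 9.90 FPKM in (+)-JQ1, against 14.9, 15.8 and 16.9 FPKM in (−)-JQ1. Its log2 change was -0.43 ± 0.11, -0.51 ± 0.11, -0.47 ± 0.11 and -0.26 ± 0.11, the first 3 called (adjusted p = 0.00714, 0.00107 and 0.00320) and the last not (0.0826). Polr2k, which has the shortest transcript of all members, changed by -0.61 ± 0.16 at 0.5 µM and 12 h (adjusted p = 0.00413) and by 0.19 ± 0.16 at 0.5 µM and 24 h, which was not called. The difference between these times was 0.80 ± 0.23, with an unadjusted p of 0.00195 and an adjusted p of 0.184. Its call at 0.2 µM and 24 h (-0.45 ± 0.16) was lost in 10 of 15 alternatives, including without (+) replicate 2 or 3 or (−) replicate 1 or 3 (-0.33 to -0.45). Polr2l ranged from 7.92 to 48.2 FPKM over the (−) libraries, the widest relative spread of all members (coefficient of variation 60.9%), and with a standard error of 0.35 no change in it was detectable. Polr2e was not called in any comparison.

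**Figure D3:**
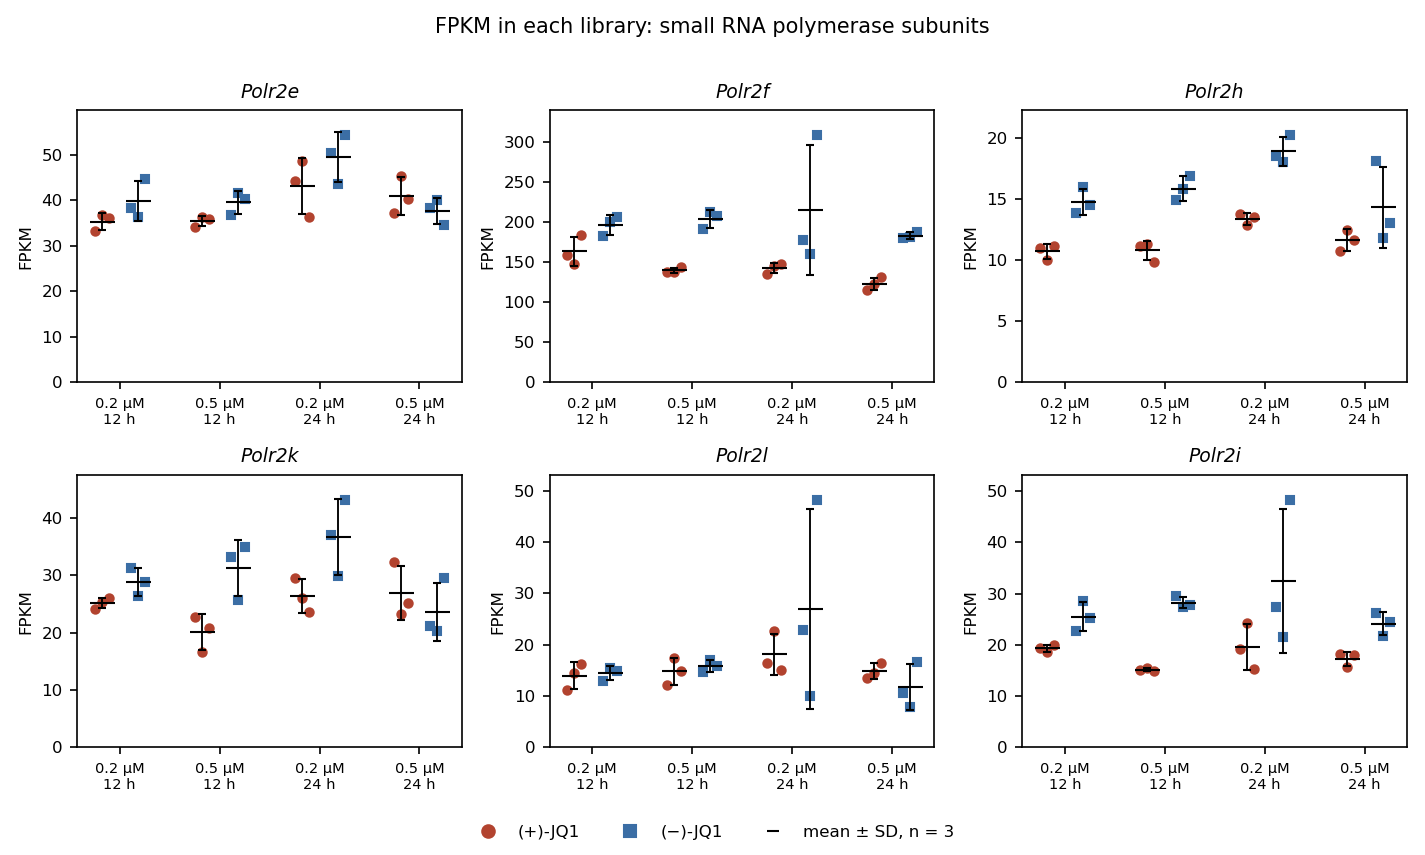
FPKM in each of the 24 libraries for the shared subunits Polr2e, Polr2f, Polr2h, Polr2k and Polr2l and for the small subunit Polr2i, with (+)-JQ1 left of (−)-JQ1 (bars, mean ± SD of 3). Every gene shown has its highest (−) value in the same library, replicate 3 at 0.2 µM and 24 h. It is 308 FPKM for Polr2f, 48.4 for Polr2i, 48.2 for Polr2l, 54.4 for Polr2e, 20.3 for Polr2h and 43.2 for Polr2k.

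Cdk7, the TFIIH kinase that phosphorylates the tail of Polr2a, had changes of the opposite sign to those of its substrate. It stood at 6.41, 5.98 and 5.97 FPKM in (+)-JQ1 at 0.2 µM and 12 h, against 8.29, 9.15 and 8.57 FPKM in (−)-JQ1. With 0.5 µM at 12 h it stood at 4.70, 5.75 and 5.40 FPKM in (+)-JQ1, against 7.46, 8.97 and 8.37 FPKM in (−)-JQ1. The log2 change of Cdk7 was -0.44 ± 0.10 and -0.56 ± 0.10 with 0.2 and 0.5 µM at 12 h and -0.47 ± 0.10 with 0.5 µM at 24 h (adjusted p = 0.00289, 0.000197 and 0.00117), and no alternative ended these calls. The values at 0.2 µM and 24 h were 7.09, 7.59 and 7.36 FPKM in (+)-JQ1, against 9.48, 8.45 and 7.12 FPKM in (−)-JQ1, which overlap, and the change of -0.16 ± 0.10 was not called. The effect of 0.5 µM differed from that of 0.2 µM at 24 h by -0.31 ± 0.15, which did not pass adjustment (adjusted p = 0.873).

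In the Mediator head, the part that contacts the polymerase, no subunit of 12 was called higher in any comparison, and 2, 4, 3 and 3 were called lower. These are 16.7%, 33.3%, 25% and 25% of the head, beside 19.6%, 26.1%, 21.8% and 24.5% of all genes lower and 8.23%, 12.2%, 11% and 13.7% higher, so the shares lay near the background. With median-of-ratios scaling these were 1, 2, 3 and 2, and again none was higher. Med30, a head subunit found in animals, fell most. It stood at 9.15, 9.51 and 9.75 FPKM in (+)-JQ1 at 0.5 µM and 12 h, against 16.5, 15.4 and 17.6 FPKM in (−)-JQ1. After 24 h with 0.5 µM it stood at 8.76, 8.74 and 7.47 FPKM in (+)-JQ1, against 17.3, 18.95 and 13.7 FPKM in (−)-JQ1. Its values at 0.2 µM were 9.09, 7.67 and 11.8 FPKM at 12 h and 11.8, 10.4 and 7.85 FPKM at 24 h in (+)-JQ1, against 17.2, 15.4 and 14.6 FPKM at 12 h and 25.3, 15.1 and 20.97 FPKM at 24 h in (−)-JQ1. All 12 (+) libraries (7.47 to 11.8 FPKM) lay below all 12 (−) libraries (13.7 to 25.3 FPKM).

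The log2 change of Med30 was -0.69 ± 0.17, -0.74 ± 0.17, -0.95 ± 0.17 and -0.91 ± 0.17 (SE), with adjusted p-values of 0.00332, 0.00117, 0.000142 and 0.000152. Over the alternatives it ranged from -0.56 to -1.14, and no call was lost. Med6, a head subunit conserved from yeast, fell by 0.36 ± 0.11, 0.50 ± 0.11, 0.44 ± 0.11 and 0.52 ± 0.11 (adjusted p = 0.0220, 0.00130, 0.00545 and 0.000940). It stood at 14.2, 12.4 and 11.9 FPKM in (+)-JQ1 at 0.5 µM and 24 h, against 17.3, 21.6 and 17.9 FPKM in (−)-JQ1. Its call at 0.2 µM and 12 h was lost with median-of-ratios scaling (-0.28) and without (+) replicate 1 or 2 or (−) replicate 2 or 3 (-0.30 to -0.34), and that at 0.2 µM and 24 h with only the compared libraries (-0.44, adjusted p = 0.0617 in limma). Med8, which binds Med18 and Med20 through its C-terminal end in yeast, was called lower in 3 comparisons (-0.41, -0.50 and -0.41), but each of those calls was lost in several alternatives. The call at 0.5 µM and 12 h was lost on leaving out any 1 of the 6 libraries (-0.36 to -0.44). That at 0.2 µM and 24 h was lost without (+) replicate 1 or 3 or (−) replicate 1 (-0.39 to -0.43), and that at 0.5 µM and 24 h without (+) replicate 2 or 3 or (−) replicate 2 or 3 (-0.26 to -0.44). Med17, the central head subunit, was not called, with log2 changes of -0.13 to 0.00 and 95% intervals within -0.33 and 0.19.

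Med14, the scaffold, rose in 3 of 4 comparisons, whereas the head subunits Med30 and Med6 fell. It stood at 19.3, 20.3 and 19.7 FPKM in (+)-JQ1 at 0.5 µM and 12 h, against 12.2, 14.1 and 12.7 FPKM in (−)-JQ1, without overlap. The log2 change was 0.40 ± 0.14, 0.57 ± 0.14, 0.40 ± 0.14 and 0.34 ± 0.14, with adjusted p-values of 0.0395, 0.00264, 0.0328 and 0.0610. The call at 0.5 µM and 12 h held in all 14 alternatives. That at 0.2 µM and 12 h was lost without (+) replicate 2 or 3 or (−) replicate 1 or 3 (0.31 to 0.42), and that at 0.2 µM and 24 h without (+) replicate 1 or 3 or (−) replicate 3 (0.32 to 0.37). The ratio of Med30 to Med14 FPKM within a library was 0.345 to 0.770 in the 12 (+) libraries and 0.848 to 2.04 in the 12 (−) libraries.

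In the middle, 0, 0, 1 and 1 of 8 subunits were called higher and 0, 1, 0 and 1 lower. Either way these are 0%, 12.5%, 12.5% and 25%, beside 27.9%, 38.3%, 32.8% and 38.2% of all genes. The shares rest on 8 genes, and their difference from the background was not tested. Med1, the subunit through which nuclear receptors reach Mediator, was called at 0.2 µM and 24 h alone, at 27.3, 24.3 and 27.9 FPKM in (+)-JQ1, against 22.002, 24.0 and 18.9 FPKM in (−)-JQ1 (log2 0.29 ± 0.09, adjusted p = 0.0171). That call was lost without (+) replicate 1 or 3 or (−) replicate 3 (0.20 to 0.26), and the other log2 changes of Med1 were 0.10, 0.05 and 0.05. Med26, which recruits elongation factors, was not called (0.04 ± 0.14, 0.21 ± 0.14, 0.00 ± 0.14 and 0.21 ± 0.14) and ranged from 3.59 to 6.00 FPKM in (+) and 2.79 to 5.81 FPKM in (−) libraries. Med21, which pairs with Med7 in the hinge of the middle, was lower at 0.5 µM at both times (-0.35 ± 0.12 and -0.46 ± 0.12, adjusted p = 0.0306 and 0.00490), and the 12 h call was lost without (+) replicate 3 or (−) replicate 1 or 3 (-0.27 to -0.32) and under both other scalings (-0.23 and -0.28). Med10, another middle subunit, was higher at 0.5 µM and 24 h (0.30 ± 0.10, adjusted p = 0.0219), a call lost without (+) replicate 1 or 2 or (−) replicate 2 or 3 (0.20 to 0.29). The Med31 values were 0.32, 0.34, 0.14 and 0.39 with a standard error of 0.17, none of them called.

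Of the 5 tail subunits, Med24 moved most, and downward, at every dose and time but 0.2 µM and 24 h. There the largest change in the tail was the rise of Med23 (0.37). Med24 stood at 11.7, 15.7 and 13.02 FPKM in (+)-JQ1 at 0.5 µM and 12 h, against 22.8, 22.8 and 22.9 FPKM in (−)-JQ1. After 24 h with 0.5 µM it stood at 10.96, 12.8 and 14.6 FPKM in (+)-JQ1, against 19.6, 18.5 and 20.04 FPKM in (−)-JQ1. The groups did not overlap at this dose. The log2 change was -0.43 ± 0.13, -0.73 ± 0.13, -0.30 ± 0.13 and -0.57 ± 0.13 (adjusted p = 0.0150, 0.000113, 0.0752 and 0.00128), and the first call was lost without (+) replicate 1 (-0.34) or (−) replicate 2 (-0.39). Within (+)-JQ1 at 24 h, Med24 at 0.5 µM lay 0.46 ± 0.13 below its level at 0.2 µM, which did not pass adjustment (adjusted p = 0.0714). Med23, a partner of Med24 in the tail, was higher at 0.2 µM and 24 h (0.37 ± 0.11, adjusted p = 0.0151) and not called elsewhere, and that call was lost without (−) replicate 3 (0.27), with library weights (0.39) and with only the compared libraries. Med15, Med16 and Med25 were not called in any comparison.

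In the kinase module some genes were called and others were not, and differences between its genes were not tested. Med13 and Med13l, the subunits that tie the module to the Mediator core, were higher in 2 and 3 comparisons, whereas Cdk8, Ccnc, Med12 and Med12l were not called in any. Of its 7 genes, 1, 3, 2 and 0 were called higher and none lower, and with median-of-ratios scaling 1, 3, 2 and 2 were higher and none lower. Over all genes on the deposited scale the higher share was 8.23%, 12.2%, 11% and 13.7% and the lower share 19.6%, 26.1%, 21.8% and 24.5%. Cdk8 stood at 13.8, 16.2 and 13.7 FPKM in (+)-JQ1 at 0.5 µM and 12 h, against 14.6, 18.8 and 15.3 FPKM in (−)-JQ1, which overlap. Its log2 changes were -0.05, -0.14, -0.01 and -0.01, with 95% intervals inside -0.37 and 0.22, so a change of the size seen in Polr2a lay outside the intervals. Ccnc, the cyclin that activates both kinases, had log2 changes of -0.17, -0.18, -0.08 and -0.14 with a standard error of 0.14, none called.

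Cdk19, the paralog of Cdk8, rose at 0.5 µM and 12 h to 19.99, 22.9 and 21.5 FPKM in (+)-JQ1, against 16.2, 18.4 and 16.4 FPKM in (−)-JQ1 (log2 0.32 ± 0.10, adjusted p = 0.0116). The other 3 changes of Cdk19 were 0.14, -0.10 and -0.06. That single call was lost without (+) replicate 2 (0.27) or (−) replicate 1 (0.29), and Cdk19os overlaps 268 of its exon bases on the other strand. The ratio of Cdk8 to Cdk19 FPKM was 0.638 to 0.710 in (+)-JQ1 at 0.5 µM and 12 h and 0.905 to 1.03 in (−)-JQ1, and the ranges overlapped over all 12 libraries of each enantiomer (0.638 to 0.923 in (+) and 0.737 to 1.11 in (−)).

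Med13 stood at 27.1, 25.5 and 26.6 FPKM in (+)-JQ1 at 0.5 µM and 12 h, against 19.01, 19.8 and 18.7 FPKM in (−)-JQ1. With 0.2 µM at 24 h it stood at 26.7, 19.4 and 28.5 FPKM in (+)-JQ1, against 16.8, 18.4 and 16.04 FPKM in (−)-JQ1. Its log2 change was 0.26 ± 0.13, 0.44 ± 0.13, 0.50 ± 0.13 and 0.31 ± 0.13, with adjusted p-values of 0.163, 0.0104, 0.00562 and 0.0703. The Med13 call at 0.2 µM and 24 h was lost with only the compared libraries (0.50, adjusted p = 0.0953 in limma). Med13l had log2 changes of 0.31 ± 0.11, 0.39 ± 0.11, 0.37 ± 0.11 and 0.25 ± 0.11, with adjusted p-values of 0.0403, 0.00746, 0.0131 and 0.0744. The Med13l call at 0.2 µM and 12 h was lost without (+) replicate 1 or 2 or (−) replicate 1 or 3 (0.28 to 0.30), and that at 0.2 µM and 24 h without (+) replicate 3 (0.33) or (−) replicate 2 (0.30), with library weights (0.37, adjusted p = 0.0586 in limma) and with only the compared libraries (0.37, adjusted p = 0.132). The ratio of Med13 to Med13l FPKM was 1.67 to 2.60 in (+) and 1.70 to 2.40 in (−) libraries, and the ranges overlap. Exons of Med13 share 800 bases with Brip1os on the other strand, and Med13l has no such overlap.

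Med12, which activates the kinase, stood at 7.08, 9.34 and 8.15 FPKM in (+)-JQ1 at 0.5 µM and 12 h, against 8.73, 10.8 and 8.11 FPKM in (−)-JQ1. Its log2 changes of -0.03, -0.15, 0.25 and -0.16 had a standard error of 0.16 and none was called. Med12l, its paralog, was the lowest member in these cells, at 1.84 to 3.25 FPKM in (+) and 1.91 to 2.94 FPKM in (−) libraries, and was not called either. Both overlap exons of other genes, Med12 by 749 bases with Gm21986 and Med12l by 1948 bases with Igsf10. Ccnc, Med10 and Med26 also share exon bases with other genes, and 18 of the 47 members do so in all.

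**Figure D4:**
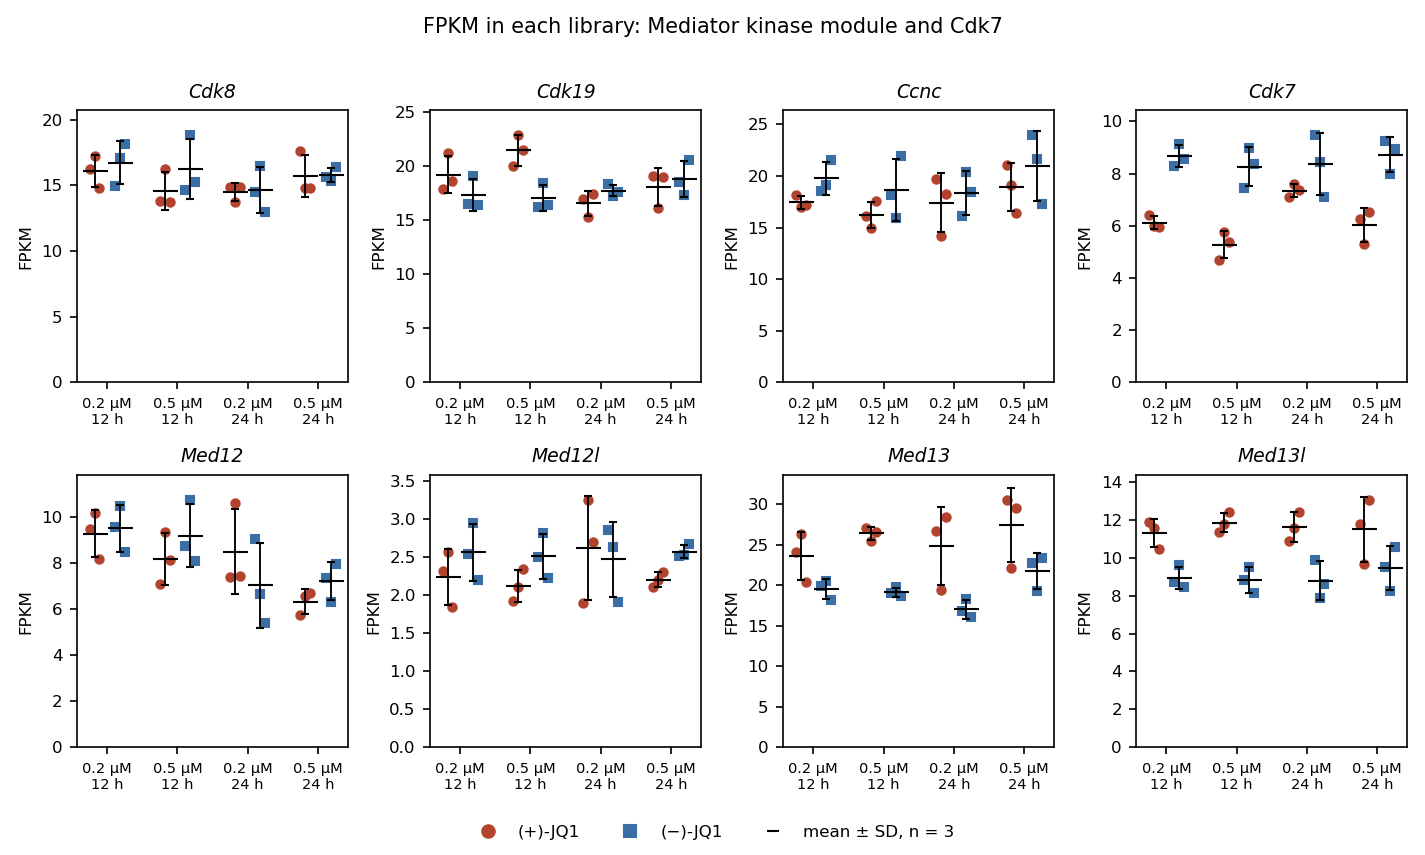
FPKM in each of the 24 libraries for the kinase module genes and for Cdk7, with (+)-JQ1 left of (−)-JQ1 at each dose and time (bars, mean ± SD of 3). Cdk8 and Ccnc overlap between the enantiomers at every dose and time except Ccnc at 0.2 µM and 12 h, whereas at 0.5 µM and 12 h Med13 (25.5 to 27.1 against 18.7 to 19.8 FPKM), Med13l and Cdk19 do not.

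Whether the response depended on dose or time was tested by the difference between effects. No member had an effect that differed between 0.5 and 0.2 µM at 12 h or 24 h, or between 24 and 12 h at 0.2 or 0.5 µM, in limma with adjustment over all genes. The background was as sparse, with 0.0435%, 0.29%, 0.0217% and 0.326% of all genes called. At an unadjusted p under 0.05 there were 0, 3, 0 and 2 members: Cdk7, Med10 and Polr2k between doses at 24 h, and Cdk19 and Polr2k between times at 0.5 µM. Over all 13801 genes the numbers at that threshold were 386, 779, 611 and 921. Between 0.5 and 0.2 µM within 1 enantiomer no member was called either, beside 0.645% and 2.15% of all genes in (+)-JQ1 at 12 and 24 h and 0% and 0.00725% in (−)-JQ1. Unadjusted, 2 and 10 members passed in (+)-JQ1 and 0 and 12 in (−)-JQ1. Of all 13801 genes, 959 and 2315 passed in (+)-JQ1 and 59 and 1673 in (−)-JQ1. Without replicate 2 of (−)-JQ1 at 0.2 µM and 24 h, 11 members were called between the doses of (−)-JQ1 at 24 h. In (+)-JQ1 at 24 h there was 1 without replicate 1 at 0.2 µM, and there were 2 without replicate 3 at 0.5 µM. The shares of all genes called in these fits are not given here. These counts therefore cannot be set against a background.

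Polr2a was lower at 24 h than at 12 h under both enantiomers, over both doses. In (+)-JQ1 it fell by 0.42 ± 0.09 on the log2 scale (adjusted p = 0.00496), a call kept in all 21 alternatives. In (−)-JQ1 it fell by 0.29 ± 0.09 (adjusted p = 0.0388), a call lost in 10 of 21 alternatives, where the log2 change ranged from -0.23 to -0.35. In (+)-JQ1, 3 of 47 members changed with time (12.5% of all genes): Polr2a and Cdk19 (-0.22 ± 0.07, adjusted p = 0.0366) were lower at 24 h (3.69% of all genes), and Med28, a head subunit (0.33 ± 0.10, adjusted p = 0.0310), was higher (8.81% of all genes). In (−)-JQ1, 2 changed (15.6% of all genes): Polr2a and Med12 (-0.36 ± 0.11, adjusted p = 0.0325) were lower at 24 h (4.62% of all genes), and none was higher (11% of all genes). The calls of Cdk19, Med28 and Med12 were lost in 9, 11 and 8 of 21 alternatives. In (−)-JQ1 the count was 0 without replicate 1 or 2 at 0.2 µM and 12 h, replicate 3 at 0.2 µM and 24 h, or replicate 1 or 2 at 0.5 µM and 24 h. It was 1 without replicate 1 or 2 at 0.5 µM and 12 h or replicate 2 at 0.2 µM and 24 h, and 4 without replicate 1 at 0.2 µM and 24 h or replicate 3 at 0.5 µM and 24 h. In (+)-JQ1 the count was 1 without replicate 3 at 0.2 µM and 12 h, replicate 2 or 3 at 0.5 µM and 12 h, replicate 1 at 0.2 µM and 24 h, or replicate 2 at 0.5 µM and 24 h.

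The members that rose and those that fell differed in a property that the choice of members did not use, the length of the longest coding transcript in GENCODE M21. The 9 members called higher at least once had a median length of 6740 bases (913 to 10546), the 13 called lower 1007 bases (601 to 3410), and the 25 never called 2547 bases (900 to 11006). Med10, at 913 bases, is the short member among those called higher. The Spearman correlation between length and log2 change over the 47 members was 0.476, 0.517, 0.673 and 0.306 in the 4 comparisons, and 0.449, 0.494, 0.656 and 0.272 without Polr2a. Over the 13046 tested genes with a length it was 0.0821, 0.0791, 0.205 and 0.0189. For GC content the members' Spearman correlation was 0.04 to 0.10. These are descriptions across genes of the same libraries, which share depth and preparation, and genes are not independent replicates. FPKM are themselves divided by length, and the part of that step in this pattern was not tested. In replicate 3 of (−)-JQ1 at 0.2 µM and 24 h, the 15 members with their highest (−) value had a median length of 950 bases. The correlation of 0.673 in that comparison was not computed without this library.

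**Figure D5:**
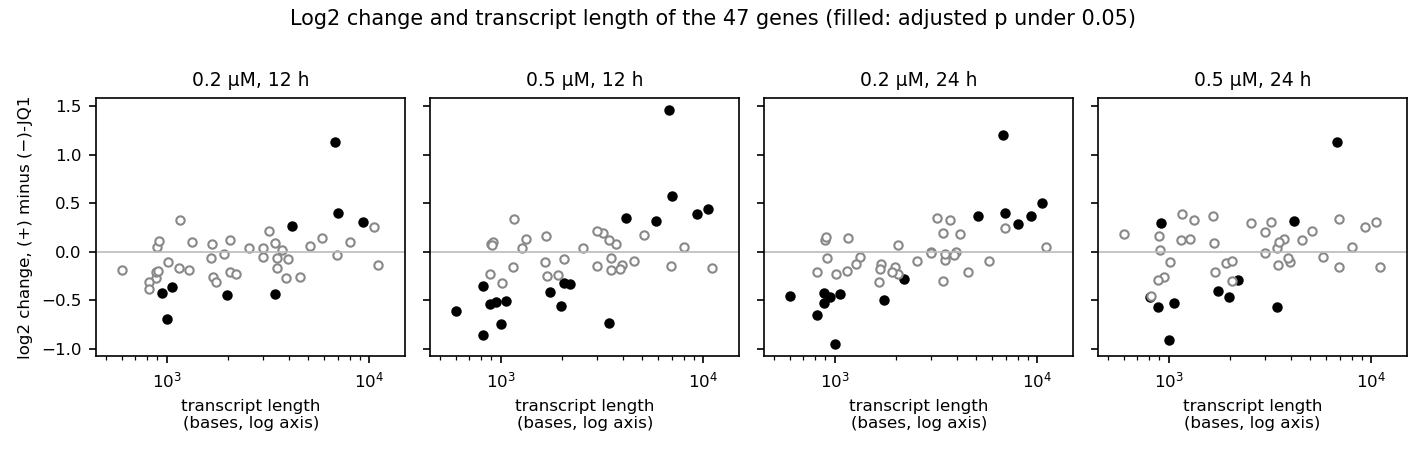
Log2 change, (+) minus (−)-JQ1, of the 47 genes against the length of their longest coding transcript (log axis) in the 4 comparisons, filled where called. The Spearman correlation was 0.476, 0.517, 0.673 and 0.306, and the shortest transcripts lie mostly below 0.

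Levels per length differed widely among members. Polr2f was highest, with medians of 141 FPKM in (+) and 189 FPKM in (−) libraries, followed by Polr2j at 107 FPKM in (+) and 99.8 FPKM in (−) libraries, whose ranges overlap between the enantiomers. In (+)-JQ1 Polr2a followed at 82.7 FPKM. In (−)-JQ1, at 36.6 FPKM, it lay below Polr2m (65.2), Polr2d (49.1), Polr2g (47.7), Polr2e (40.2) and Polr2b (39.8), and the ranges of these subunits other than Polr2m overlap that of Polr2a there. Within Mediator, Med25 was highest, at medians of 55.9 FPKM in (+) and 51.7 FPKM in (−) libraries, and Med12l lowest, at 2.25 FPKM in (+) and 2.53 FPKM in (−) libraries.

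For context, the rest of the transcription apparatus was counted by lists written from general knowledge. Of 19 tested subunits of polymerases I and III outside those shared with polymerase II, 1, 0, 1 and 1 were higher and 5, 7, 8 and 8 lower, with median log2 changes of -0.30, -0.31, -0.22 and -0.31. The background in the same order was 8.23%, 12.2%, 11% and 13.7% for rises, 19.6%, 26.1%, 21.8% and 24.5% for falls and 27.9%, 38.3%, 32.8% and 38.2% for calls either way. Polr3d, a polymerase III subunit, changed by -0.87 ± 0.16, -1.18 ± 0.16, -0.79 ± 0.16 and -1.05 ± 0.16 (adjusted p = 0.000276, 5.20e-06, 0.000642 and 1.86e-05). Polr1a, the polymerase I counterpart of Polr2a, averaged 4.85 ± 0.586 FPKM in (+)-JQ1 at 0.5 µM and 12 h and 7.61 ± 0.294 FPKM in (−)-JQ1 (SD, n = 3 each; limma log2 change -0.56 ± 0.11, adjusted p = 0.000262), so the largest subunits of these enzymes changed in opposite directions. Of 30 general transcription factor genes 6, 8, 4 and 7 were higher and 0, 3, 4 and 2 lower. Either way this is 20%, 36.7%, 26.7% and 30%, below the shares of all genes, but these shares pool both directions. The 20% at 0.2 µM and 12 h were all rises, beside 8.23% of all genes. The 14 TFIID genes gave 6, 6, 4 and 4 rises and 0, 1, 1 and 0 falls. The 9 other TFIIH genes gave no rise and 0, 1, 2 and 1 falls. The remaining 7 gave 0, 2, 0 and 3 rises and 0, 1, 1 and 1 falls. Taf5, a TFIID subunit, rose by 0.80, 0.75, 0.74 and 0.78 and Taf4a by 0.46, 0.56, 0.52 and 0.50 on the log2 scale.

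Among 30 genes for pausing and elongation factors, 5, 10, 6 and 7 rose and 2, 2, 1 and 1 fell, beside 8.23%, 12.2%, 11% and 13.7% of all genes higher and 19.6%, 26.1%, 21.8% and 24.5% lower. Either way these are 23.3%, 40%, 23.3% and 26.7% of the list. Hexim1, which holds the kinase P-TEFb inactive, averaged 69.0 ± 3.34 FPKM in (+)-JQ1 at 0.5 µM and 12 h and 18.04 ± 1.57 FPKM in (−)-JQ1 (SD, n = 3 each), and Mepce, which caps the RNA of the same inhibitory particle, rose by 0.45, 0.53, 0.32 and 0.49. Among 12 Integrator subunits 1, 2, 2 and 3 rose and 0, 2, 0 and 1 fell (8.33%, 33.3%, 16.7% and 33.3% either way, below the shares of all genes). These shares pool both directions. The 8.33% at 0.2 µM and 12 h and the 16.7% at 0.2 µM and 24 h were all rises, beside 8.23% and 11% of all genes higher. Ints7 rose in all 4 comparisons (0.34, 0.33, 0.56 and 0.33), and Ints10 fell at 0.5 µM and 12 h (-0.41 ± 0.11, adjusted p = 0.00513). Brd2, which codes for a BET protein, rose by 0.59, 0.77, 0.55 and 0.56, while Brd3 (-0.06, -0.17, -0.15 and -0.22) was not called. The signs of the list medians were the same under both other scalings. Median-of-ratios scaling gave 12, 15, 11 and 16 higher pausing and elongation genes against 1, 2, 0 and 1 lower, 8, 9, 8 and 12 higher general factor genes against 0, 1, 3 and 1 lower, and 3, 6, 3 and 5 lower polymerase I and III genes against 1 higher in each comparison. The background moved as well. Under that scaling 1794, 2624, 2500 and 2724 of the 13801 genes were higher and 2277, 3019, 2457 and 2958 lower. On the deposited scale 1136, 1682, 1523 and 1893 were higher.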

How the data were processed

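Per the labels' protocols, libraries were made from DNase-treated poly(A) RNA with random hexamers and read as single ends of 50 bases on an Illumina HiSeq2000. Per the submitters' processing notes, FastQC, TopHat2 and build mm9 were used; the sources used here give no versions, annotation or scaling. The authors deposited 1 FPKM value per gene symbol and library. The file headers name the column only as a value, and the unit FPKM comes from a description of these files; values that are neither whole nor negative, with sums that differ between libraries, do not contradict it. 58 entries of 29 repeated symbols were left out.

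Tests ran on log2(FPKM + 1), a scale that understates changes at low values, with limma 3.58.1 in R 4.3.3: 8 group means, 16 residual degrees of freedom, empirical Bayes with trend and robust settings, two-sided, Benjamini-Hochberg over 13801 genes. P-values measure the spread between preparations within a group, with the groups treated as independent of each other. The script was tested on simulated data. Alternatives were a pseudocount of 0.1, no filter or 5 FPKM, 2 scalings, library weights, only the compared libraries, a replicate block, leaving out the 2 libraries with high Mir5105, and leaving out each library in turn.

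Members and lists were chosen with earlier results of these data known. Named were 12 fixed members, up to 4 rises and 4 falls among the called members of each enantiomer comparison, members called in all 4, and the 2 genes with the smallest adjusted p of each other list, Hexim1, Brd2 and Brd3; others were named after their values were seen. Names, lengths and promoters came from RefSeq and GENCODE M21 (GRCm38), whose coordinates are not those of mm9.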

Additional observations from a re-analysis of the deposited data

How the results depend on the processing

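No called value changed sign under any alternative. Of the values recomputed for 27 members, 5 of them added after seeing the data, 1379 stayed on their side of the threshold, 119 lost a call and 37 gained one. At 0.2 µM and 12 h, higher members numbered 2 with no filter, and lower members 8 with only the compared libraries and, when libraries were weighted, 12. For 0.2 µM and 24 h, only the compared libraries gave 1 higher and 2 lower, and leaving out the 2 libraries with high Mir5105 gave 6 and 6. For 0.5 µM and 24 h, higher members numbered 10 with median-of-ratios scaling and 6 with library weights. Library weights gave 1 member whose effect differed between times at 0.5 µM and 2 between doses of (+)-JQ1 at 24 h. Members changed between times in (−)-JQ1 numbered 1 with no filter, 0 with only the compared libraries, and 4 with library weights or without high Mir5105; in (+)-JQ1 they numbered 1, 11 and 5 with the last 3 settings. Leaving out 1 library gave 1 to 3, 5 to 6, 3 to 10 and 1 to 5 higher and 3 to 6, 9 to 10, 4 to 14 and 6 to 7 lower members, 0 to 0 effects differing by dose or time, 0 to 2 and 0 to 11 changed between doses at 24 h in (+) and (−)-JQ1 (0 to 0 at 12 h), 0 to 4 and 1 to 4 between times in (−) and (+)-JQ1, and 48 to 58 calls in the other lists (52 with all libraries). The shares of all genes called in the fits without 1 library are not given here. Same-numbered (+) and (−) libraries correlated above 0.1 in 7 of 12 pairs (range -0.345 to 0.358), but at -0.196, -0.345 and -0.004 at 0.2 µM and 24 h. These values do not settle whether the numbers mark preparations shared across groups. The main fit did not use the numbers to pair samples. With the replicate block 3, 6, 6 and 3 members were higher and 6, 12, 9 and 8 lower. FPKM hold no read numbers, so the precision of low members such as Med12l cannot be stated from depth.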
